A study of Mus with 14 samples.

Results

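Dhrs3, 4933438K21Rik, Fv1, Fbxo44, Angptl7, Ctnnbip1, Pusl1 and C1qtnf12 are 8 genes that do not encode zinc fingers and lie on mouse chromosome 4 on either side of Tnfrsf1b, the gene of tumour necrosis factor receptor 2 (Tnfr2). They were chosen by their RNA levels in Tnfr2 knockout mice against the other groups of these same data, and they are 8 of the 32285 genes in the count matrices. Every contrast with the Tnfr2 knockout mice is therefore a description for them, with no p-value, and nothing is supported by it. The list is not complete: other genes of the same stretch differed as well and are counted after the 8.

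The series holds 14 single-cell RNA libraries. Each comes from 1 mouse, whose marrow was taken 20 weeks after a secondary transplant. Donor-derived progenitors, without lineage markers and with Kit on their surface, were sorted from aged, lethally irradiated hosts. By genotype label of the donor cells, 3 mice were MxCre and 4 were Dnmt3a. A further 3 were labelled Dnmt3a;Tnfr1KO, and the last 4 were labelled Dnmt3a;Tnfr2KO. All groups shared the transplants and an injection of poly(I:C) given to the primary hosts, which induces the Mx1-driven Cre recombinase in blood and other tissues. The labels do not describe the Dnmt3a allele, the construction of either receptor knockout, the strain of the embryonic stem cells, the age of the donors or which hosts shared a donor. P-values therefore measure the spread between these mice, which may be smaller than that between donors. These last 2 groups are called Tnfr1KO-labelled and Tnfr2KO below.

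A gene is knocked out by changing it in embryonic stem cells, and DNA that flanks it can remain from the stem cells' strain after crosses to another strain. Genes in such a flanking stretch are called passengers, since they travel with the targeted gene and can carry sequence differences that change their own RNA level or how well their reads align. The genotype of chromosome 4 in these mice was not used here, and whether these 8 genes are passengers was not tested.

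The 8 genes have unlike roles. Dhrs3 encodes an enzyme that reduces retinaldehyde to retinol and so limits retinoic acid synthesis. Pusl1 encodes a member of the pseudouridine synthase family, which modifies uridines in RNA. Ctnnbip1 encodes an inhibitor that keeps beta-catenin from binding TCF and LEF transcription factors in Wnt signalling. Fbxo44 encodes an F-box protein, the part of an SCF ubiquitin ligase that picks its substrate. Angptl7 and C1qtnf12 encode secreted proteins of the angiopoietin-like and C1q/TNF-related families, and C1qtnf12 is also called adipolin. Fv1 is a gene derived from an endogenous retrovirus that restricts infection by murine leukaemia viruses, and its alleles are known to differ between mouse strains. 4933438K21Rik is annotated as a long non-coding RNA.

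On the GRCm38 reference the 8 genes and Tnfrsf1b cover 11.1 Mb. Dhrs3 (chr4:144892534-144928209) is on the proximal side of Tnfrsf1b (chr4:145212368-145246870), 0.284 Mb away, with part of its span shared with Vps13d. The other 7 lie distal to it. They are 4933438K21Rik (chr4:147063366-147068436, 1.82 Mb away), Fv1 (chr4:147868979-147870358, 2.62 Mb), Fbxo44 (chr4:148152799-148160183, 2.91 Mb) and Angptl7 (chr4:148495181-148500462, 3.25 Mb), which sits inside the span of Mtor. Ctnnbip1 (chr4:149518241-149566437) follows at 4.27 Mb and contains the microRNA gene Mir5616. Pusl1 (chr4:155888857-155891858, 10.6 Mb) overlaps Ints11, and C1qtnf12 (chr4:155962312-155966629, 10.7 Mb) overlaps the non-coding Gm42365. Whether reads were counted by strand is not given in the sources used here, so overlapping genes may share reads.

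Libraries held 3042 to 9724 barcodes and 62416022 to 162869740 unique molecular identifiers (UMIs, single captured RNA molecules). After filters, 1924 to 7265 cells per library remained, with a median of 10617.5 to 39097.5 UMIs per cell. In Dnmt3a replicate 1, 26.5% of barcodes were kept, against 63.2% to 91.6% elsewhere, and Dnmt3a replicate 4 was rich in B-lymphoid cells. Pairs of libraries shared 1 to 15 barcodes. All markers of the stem, granulocyte, monocyte, megakaryocyte and erythroid lists were detected in every library. Summed markers of non-blood cells were at 22.6 to 73.5 CPM (counts scaled to a common library size), with 4 to 6 of 6 markers detected, and those of B-lymphoid cells at 44.9 to 2567 CPM in Dnmt3a mice and 33.2 to 50.3 CPM in Tnfr2KO mice. Levels below are UMIs summed over all kept cells of a mouse, given as CPM scaled by the TMM method. A higher level in these sums cannot be told apart from a larger share of the cells that express the gene, which the values within lineages address.

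Tnfrsf1b, the targeted gene, was at 4.29, 5.48, 5.01 and 5.39 CPM in the 4 Tnfr2KO mice. In the other 10 mice it ran from 10.5 to 17 CPM. The groups did not overlap, and the log2 fold change against Dnmt3a was -1.44 ± 0.16 (standard error). By edgeR's quasi-likelihood test with Benjamini-Hochberg adjustment, the adjusted p was 5.42e-04. Reads of a 3′ library outside a deleted part would remain, so the level does not show whether protein was made. Tnfrsf1a, the gene of Tnfr1, was at 38.2 ± 4.14 CPM (SD, n = 3) under the Tnfr1KO label and 43.6 ± 9.23 CPM (n = 4) in Dnmt3a mice. The log2 fold change of -0.19 did not pass the edgeR test (adjusted p = 0.592). Dnmt3a was at 24.6 ± 3.13 CPM in MxCre, 30.6 ± 2.10 CPM in Dnmt3a, 22 ± 0.551 CPM in Tnfr1KO-labelled and 23.8 ± 1.17 CPM in Tnfr2KO mice. Both receptor groups, which carry the Dnmt3a label too, lay below every mouse labelled Dnmt3a alone (log2 fold change -0.47, edgeR adjusted p = 0.0492, for Tnfr1KO-labelled, and -0.36, adjusted p = 0.0605, for Tnfr2KO). The 3′ counts of Tnfrsf1a and Dnmt3a therefore check neither label.

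Each of the 8 genes separated the 4 Tnfr2KO mice from all 10 others without overlap. Dhrs3, 4933438K21Rik, Angptl7 and Ctnnbip1 were above all others, and Fv1, Fbxo44, Pusl1 and C1qtnf12 were below all others. Of 15645 genes tested, 0.575% separated these mice in either direction, 0.275% above and 0.3% below. Since the genes were listed for this contrast, the 8 of 8 is a description.

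**Figure D1:**
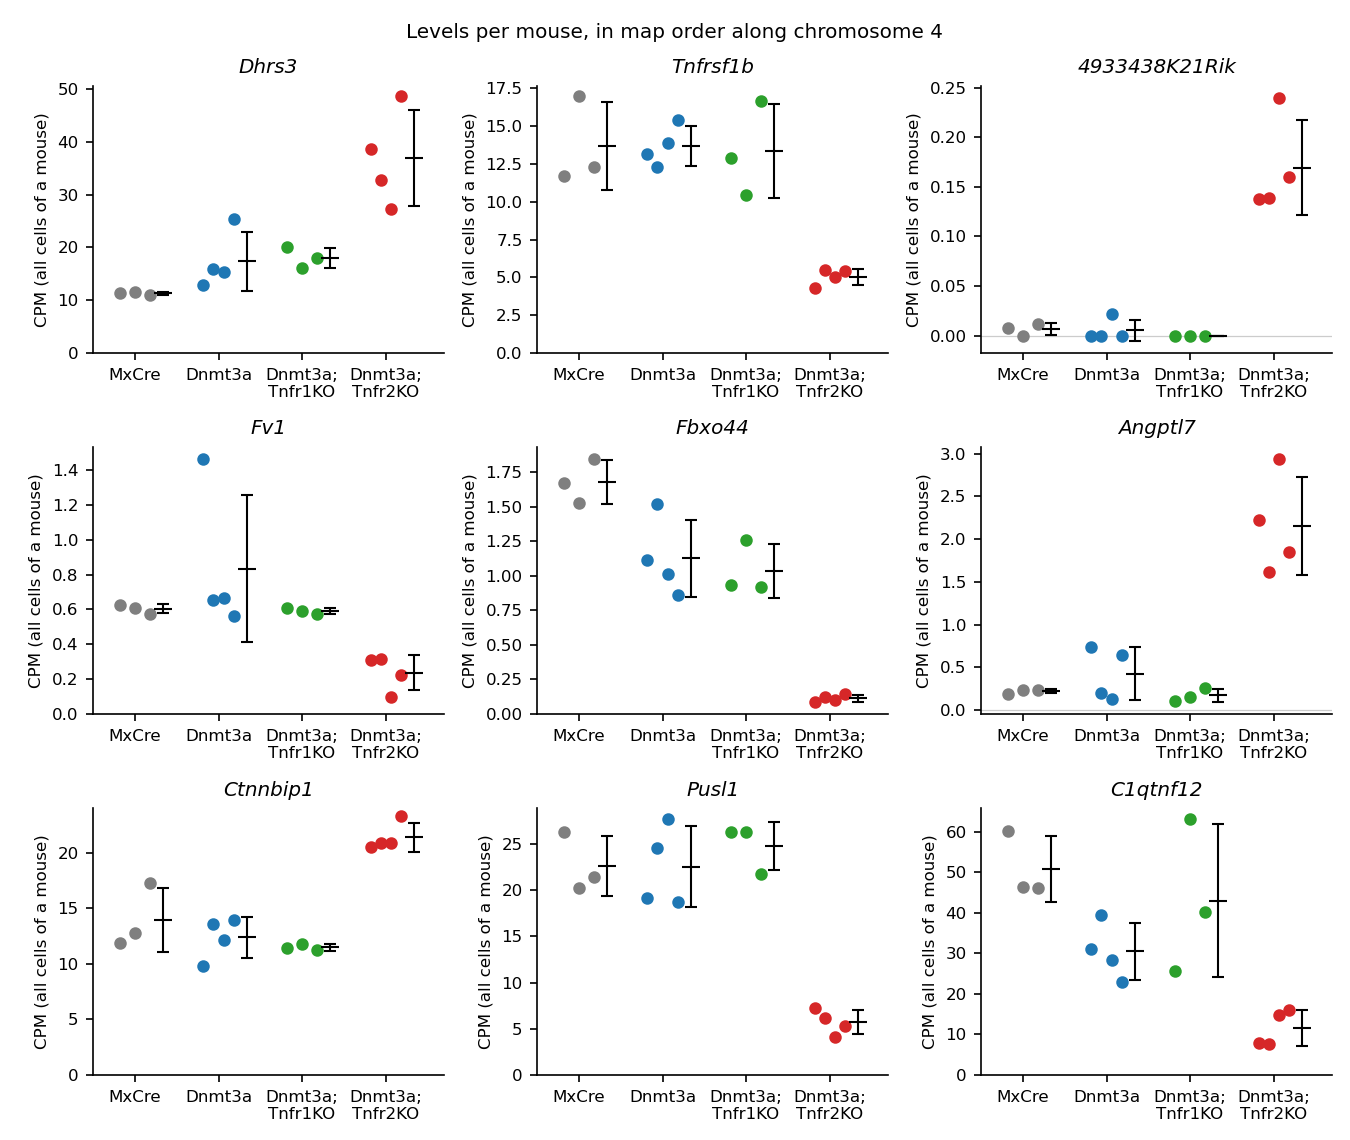
Level of Tnfrsf1b and the 8 genes in each mouse, in CPM over all kept cells on linear axes (each point is a mouse, the bar beside it the group mean and SD; n = 3, 4, 3 and 4). The 4 Tnfr2KO mice sit apart from the other 10 in all 9 panels, with Fbxo44 at 0.0864 to 0.145 CPM and Angptl7 at 1.62 to 2.94 CPM.

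Of the RNA and retinoid enzymes, Dhrs3 was at 38.7, 32.8, 27.3 and 48.7 CPM in Tnfr2KO mice. It was at 11.4, 11.5 and 11 CPM in MxCre mice and at 12.9, 15.9, 15.3 and 25.5 CPM in Dnmt3a mice. Tnfr1KO-labelled mice had 20.0, 16.1 and 18.0 CPM. The highest Dnmt3a mouse, replicate 4, came close to the lowest Tnfr2KO mouse without overlap. The log2 fold change against Dnmt3a was 1.09 ± 0.20, or 1.33 without Dnmt3a replicate 4. Vps13d, which overlaps Dhrs3, was at 9.67 ± 0.81 CPM in Tnfr2KO and 14 ± 3.45 CPM in Dnmt3a mice and did not pass the test. It was at 11.1 ± 1.15 CPM in MxCre and 10.2 ± 0.79 CPM in Tnfr1KO-labelled mice.

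Pusl1, the pseudouridine synthase relative, was at 7.25, 6.21, 4.14 and 5.25 CPM in Tnfr2KO mice. The lowest of the other 10 mice had 18.7 CPM and the highest 27.7 CPM. The gap between the groups was wide, and the 3 other groups had means of 22.6 ± 3.22 (MxCre), 22.5 ± 4.37 (Dnmt3a) and 24.8 ± 2.62 CPM (Tnfr1KO-labelled). The log2 fold change against Dnmt3a was -1.98 ± 0.18. Ints11, the gene that Pusl1 overlaps, went the other way, at 44.9 ± 3.91 CPM in Tnfr2KO against 29.3 ± 4.88 CPM in Dnmt3a mice (log2 fold change 0.61, edgeR adjusted p = 0.0435).

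Ctnnbip1, the beta-catenin inhibitor, was at 20.5, 20.9, 20.9 and 23.3 CPM in Tnfr2KO mice. It was at 11.9, 12.8 and 17.2 CPM in MxCre, at 9.82, 13.5, 12.1 and 13.9 CPM in Dnmt3a and at 11.5, 11.8 and 11.2 CPM in Tnfr1KO-labelled mice. The 4 Tnfr2KO values lay close together above the rest, and the log2 fold change against Dnmt3a was 0.79 ± 0.13, the smallest of the 8 genes.

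Fbxo44, the ubiquitin ligase adaptor, was at 0.0864, 0.118, 0.0998 and 0.145 CPM in Tnfr2KO mice, which is 57 UMIs over the group. MxCre mice had 1.67, 1.53 and 1.84 CPM, Dnmt3a mice 1.11, 1.52, 1.01 and 0.857 CPM and Tnfr1KO-labelled mice 0.930, 1.26 and 0.916 CPM. All 4 Tnfr2KO values were far below the lowest of the others, with a log2 fold change of -3.30 ± 0.25 against Dnmt3a and -3.88 ± 0.27 against MxCre.

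Among the secreted proteins, Angptl7 was at 2.22, 1.62, 2.94 and 1.85 CPM in Tnfr2KO mice. It was at 0.194, 0.238 and 0.240 CPM in MxCre mice, at 0.738, 0.201, 0.129 and 0.647 CPM in Dnmt3a mice and at 0.110, 0.156 and 0.262 CPM in Tnfr1KO-labelled mice. Dnmt3a replicates 1 and 4, the libraries that stood apart, were the highest of those 10, and the log2 fold change against Dnmt3a was 2.33 ± 0.48. Mtor, within whose span Angptl7 lies, was at 12.6 ± 0.81 CPM in Tnfr2KO and 20.2 ± 6.78 CPM in Dnmt3a mice. It was at 14.2 ± 1.18 CPM in MxCre and 15.2 ± 0.42 CPM in Tnfr1KO-labelled mice, and Dnmt3a replicates 1 and 4 were the highest.

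C1qtnf12, or adipolin, was at 7.94, 7.70, 14.8 and 16.1 CPM in Tnfr2KO mice. MxCre mice had 60.2, 46.3 and 46.0 CPM, Dnmt3a mice 31.2, 39.5, 28.2 and 22.8 CPM, and Tnfr1KO-labelled mice 25.7, 63.0 and 40.2 CPM. Mice outside the Tnfr2KO group varied widely, and the log2 fold change was -1.39 ± 0.30 against Dnmt3a and -2.13 ± 0.32 against MxCre.

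Fv1, the retrovirus restriction gene, was at 0.311, 0.313, 0.0998 and 0.225 CPM in Tnfr2KO mice. MxCre mice had 0.626, 0.611 and 0.575 CPM, Dnmt3a mice 1.46, 0.652, 0.664 and 0.560 CPM and Tnfr1KO-labelled mice 0.610, 0.590 and 0.576 CPM. Apart from Dnmt3a replicate 1, the mice outside the Tnfr2KO group lay between 0.560 and 0.664 CPM. Against Dnmt3a the log2 fold change was -1.80 ± 0.37, and -1.40 without Dnmt3a replicate 1. Fv1 descends from a retroviral sequence, so reads may be shared with related retroviral copies and its counts are uncertain.

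The long non-coding RNA 4933438K21Rik gave 16, 20, 24 and 22 UMIs in the 4 Tnfr2KO mice. It gave 2 UMIs over the 3 MxCre mice, 3 over the 4 Dnmt3a mice, all in replicate 3, and 0 over the 3 Tnfr1KO-labelled mice. All 4 Tnfr2KO mice lay above every other mouse, and the gene passed the filter on low counts only through them. Scaled to total UMIs, the Tnfr2KO level was 20.4 times that of Dnmt3a (95% counting interval 6.73 to 101) and 21.7 times that of MxCre (5.82 to 182). Without Dnmt3a replicate 3 the Dnmt3a mice are at 0, and the level was at least 13.3-fold higher. Against the Tnfr1KO-labelled mice it was at least 14.6-fold higher, each from a floor of 3 UMIs over the group compared. These intervals and floors cover counting error only.

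**Figure D2:**
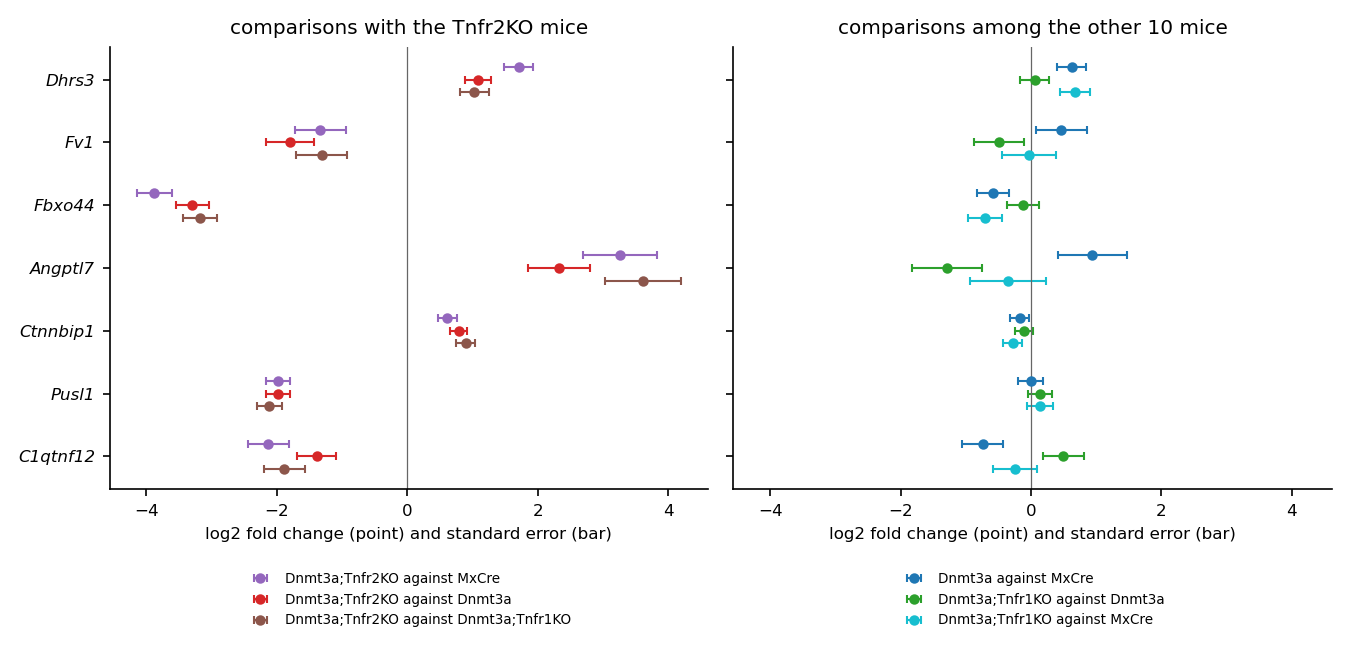
Log2 fold change (point) and standard error (bar) of 7 of the genes, from the edgeR fit over all 14 mice, in the 3 comparisons with Tnfr2KO mice (left) and the 3 comparisons among the other 10 mice (right). 4933438K21Rik is left out because it has 3 or fewer UMIs in each group outside Tnfr2KO; the left panel reaches -3.88 for Fbxo44, while the right panel stays between -1.29 and 0.94.

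A gene with an adjusted p below 0.05 is termed called. The calls among the 8 genes in comparisons with Tnfr2KO mice are given only to place the genes among all others, since these comparisons chose them and 4933438K21Rik entered the fit only through those mice. Between Tnfr2KO and Dnmt3a mice 8 of 8 were called by edgeR, 4 higher and 4 lower. In that comparison 0.876% of all tested genes were called, 0.569% higher and 0.307% lower. Against Tnfr1KO-labelled mice 6 of 8 were called, where 0.192% of all genes were, and Dhrs3 (1.03) and Fv1 (-1.31) were not. Against MxCre mice 5 of 8 were called, where 0.46% of all genes were. The counts of all genes behind these shares moved with single libraries, and the 137 called against Dnmt3a became 33 when Tnfr2KO replicate 1 was left out and 798 when Dnmt3a replicate 2 was. The 3 comparisons share the Tnfr2KO mice, and nothing is read from the counts. The count against Dnmt3a fell to between 2 and 5 when any one library other than Dnmt3a replicate 2, Dnmt3a replicate 3 or Tnfr2KO replicate 4 was left out, and to 2 in a fit of the 2 groups alone.

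The comparisons among the other 10 mice were not used to choose the genes, but the levels of these mice entered the choice. Counts of calls here are therefore not independent of that choice. With 3 or fewer UMIs in each of these groups, 4933438K21Rik was too low to be called in any of the 3 comparisons. The first of the comparisons asks what the Dnmt3a label does to the genes in mice with both receptors. Between Dnmt3a and MxCre mice edgeR called 0 of the 8 genes, as did DESeq2, where edgeR called 2.46% of all genes. That share rests on single libraries: leaving out MxCre replicate 2 or Dnmt3a replicate 1 took the 385 genes behind it to 1, leaving out MxCre replicate 3 gave 3, and leaving out Dnmt3a replicate 2 gave 1223. At an unadjusted p below 0.05 there were 3 of the 8, and 3680 of all 15645 genes. Dhrs3 had a log2 fold change of 0.62 ± 0.22 (adjusted p = 0.118), or 0.38 without Dnmt3a replicate 4, Fbxo44 of -0.58 ± 0.24 (adjusted p = 0.166) and C1qtnf12 of -0.74 ± 0.31 (adjusted p = 0.171). In these 3 genes the Dnmt3a and MxCre mice did not overlap, as in 19% of all tested genes, and none passed the adjusted test. Summed monocyte markers rose as Dhrs3 did, while Fbxo44 fell, at 210 to 344 CPM in MxCre and 433 to 620 CPM in Dnmt3a mice. Summed megakaryocyte markers went the other way from Dhrs3, at 319 to 694 CPM in MxCre and 32.5 to 318 CPM in Dnmt3a mice. Within monocyte-like cells, Dhrs3 was at 25.0 ± 2.11 CPM in MxCre and 25.8 ± 4.79 CPM in Dnmt3a mice and Fbxo44 at 0.625 ± 0.216 and 0.686 ± 0.183 CPM. Within granulocyte-like cells Dhrs3 was at 7.52 ± 0.48 and 6.61 ± 2.62 CPM and Fbxo44 at 0.733 ± 0.210 and 0.701 ± 0.428 CPM, and in erythroid-like cells Fbxo44 was at 2.11 ± 0.57 and 2.11 ± 0.64 CPM. In stem-like cells Dhrs3 was at 10.7 ± 1.45 and 16.7 ± 2.49 CPM and Fbxo44 at 2.93 ± 0.47 and 2.07 ± 0.32 CPM. The groups overlapped in neither. Dhrs3 was at 1.15 ± 0.17 and 2.42 ± 1.09 CPM in erythroid-like cells, with overlap. In megakaryocyte-like cells, with 3 Dnmt3a mice, Dhrs3 was at 22.7 ± 4.92 and 20.2 ± 9.32 CPM. Fbxo44 ran there from 2.37 to 2.59 CPM in MxCre and from 0.325 to 1.74 CPM in Dnmt3a mice. These Fbxo44 values did not overlap, and those of Dnmt3a mice rest on 12 UMIs. The part of the cell mixture in these differences was not tested. Summed erythroid markers moved with C1qtnf12, at 471 to 840 CPM in MxCre and 129 to 567 CPM in Dnmt3a mice. Within erythroid-like cells, C1qtnf12 was at 191 ± 27.6 CPM in MxCre and 228 ± 71.1 CPM in Dnmt3a mice. It was at 26.2 and 19.4 CPM in stem-like, 35.1 and 22.1 CPM in granulocyte-like and 18.8 and 14.5 CPM in monocyte-like cells. In megakaryocyte-like cells it was at 29.2 and 21.6 CPM. Outside erythroid-like cells the Dnmt3a mice lay below all MxCre mice in each of these lineages. The part of the cell mixture in C1qtnf12 was not tested.

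Loss of the other receptor, by its label, was compared next. Between Tnfr1KO-labelled and Dnmt3a mice edgeR called 0 of 8 genes, as did DESeq2, where edgeR called 0.55% of all genes (86 genes, and 8 to 317 when 1 library was left out, the lowest without Tnfr1KO-labelled replicate 3 and the highest without Dnmt3a replicate 2). The 1 gene at an unadjusted p below 0.05 was Angptl7, with a log2 fold change of -1.29 ± 0.54 (adjusted p = 0.213), and -0.91 without Dnmt3a replicate 1. Of all 15645 genes, 3110 were at an unadjusted p below 0.05. Pusl1 differed by 0.14 ± 0.19 (adjusted p = 0.712), Fbxo44 by -0.12 ± 0.24 (adjusted p = 0.815) and Dhrs3 by 0.05 ± 0.22 (adjusted p = 0.808). Within stem-like cells Dhrs3 was at 25.8 ± 1.39 CPM in Tnfr1KO-labelled and 16.7 ± 2.49 CPM in Dnmt3a mice. Within megakaryocyte-like cells it was at 40.3 ± 3.53 and 20.2 ± 9.32 CPM, and the groups overlapped in neither. They overlapped in monocyte-like (29.7 and 25.8 CPM), granulocyte-like (7.95 and 6.61 CPM) and erythroid-like cells (1.89 and 2.42 CPM). Between Tnfr1KO-labelled and MxCre mice edgeR called 0 of 8 and DESeq2 0, where edgeR called 0.409% of all genes (64 genes, which became 6 when Tnfr1KO-labelled replicate 3 was left out and 239 when Dnmt3a replicate 4 was). At an unadjusted p below 0.05 were Dhrs3 (0.68 ± 0.23, adjusted p = 0.222) and Fbxo44 (-0.70 ± 0.26, adjusted p = 0.267), as were 1891 of all 15645 genes. In a fit of these 2 groups alone Dhrs3 was called, with an adjusted p of 0.0377. Summed monocyte markers were at 423 to 656 CPM in Tnfr1KO-labelled mice, above every MxCre mouse here too. Summed megakaryocyte markers were at 89.5 to 134 CPM, below every MxCre mouse. Within stem-like cells Dhrs3 was at 25.8 ± 1.39 CPM in Tnfr1KO-labelled and 10.7 ± 1.45 CPM in MxCre mice. Within megakaryocyte-like cells it was at 40.3 ± 3.53 and 22.7 ± 4.92 CPM, with no overlap in either lineage. It was at 29.7 and 25.0 CPM in monocyte-like, 7.95 and 7.52 CPM in granulocyte-like and 1.89 and 1.15 CPM in erythroid-like cells. In erythroid-like cells the lowest Tnfr1KO-labelled mouse (1.37 CPM) lay just above the highest MxCre mouse (1.34 CPM). The share of all genes without overlap in these comparisons within lineages was not counted. The part of the cell mixture in these differences was not tested. A p above the threshold does not show that the groups were equal.

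Position was the next question: how far the differences reached along chromosome 4. In Tnfr2KO against Dnmt3a mice, 31 of the 884 genes tested on chromosome 4 were called, among them the 8 genes, which this contrast chose, and Tnfrsf1b. Of 168 other genes between Dhrs3 and C1qtnf12, 123 were tested and 19 called, 18 higher and 1 lower. This window was chosen after seeing the data, and its ends are genes that this contrast chose. Elsewhere on chromosome 4, and more than 100 annotated genes from Tnfrsf1b, 3 of 741 were called. Against Tnfr1KO-labelled mice, 12 of the 123 genes were called and 0 of the 741. The 741 included 27 at an unadjusted p below 0.05, as were 610 of all 15645 genes.

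The calls lay on the distal side of Tnfrsf1b. Counting start to start and leaving out the 8 genes, 19 of 136 tested genes were called within 11 Mb distal, and 1 of 111 within the same length on the proximal side. That 1 gene was Id3, at -4.73, named after its value was seen. By 5-Mb steps from Tnfrsf1b, 11 of 52 genes were called in the first distal step, 7 of 42 in the second and 1 of 42 in the third. In the first proximal step it was 0 of 32, with Dhrs3 as the only gene of the 8 there. In Tnfr1KO-labelled against Dnmt3a mice, 1 of the 136 distal genes and 0 of the 111 proximal genes were called.

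**Figure D3:**
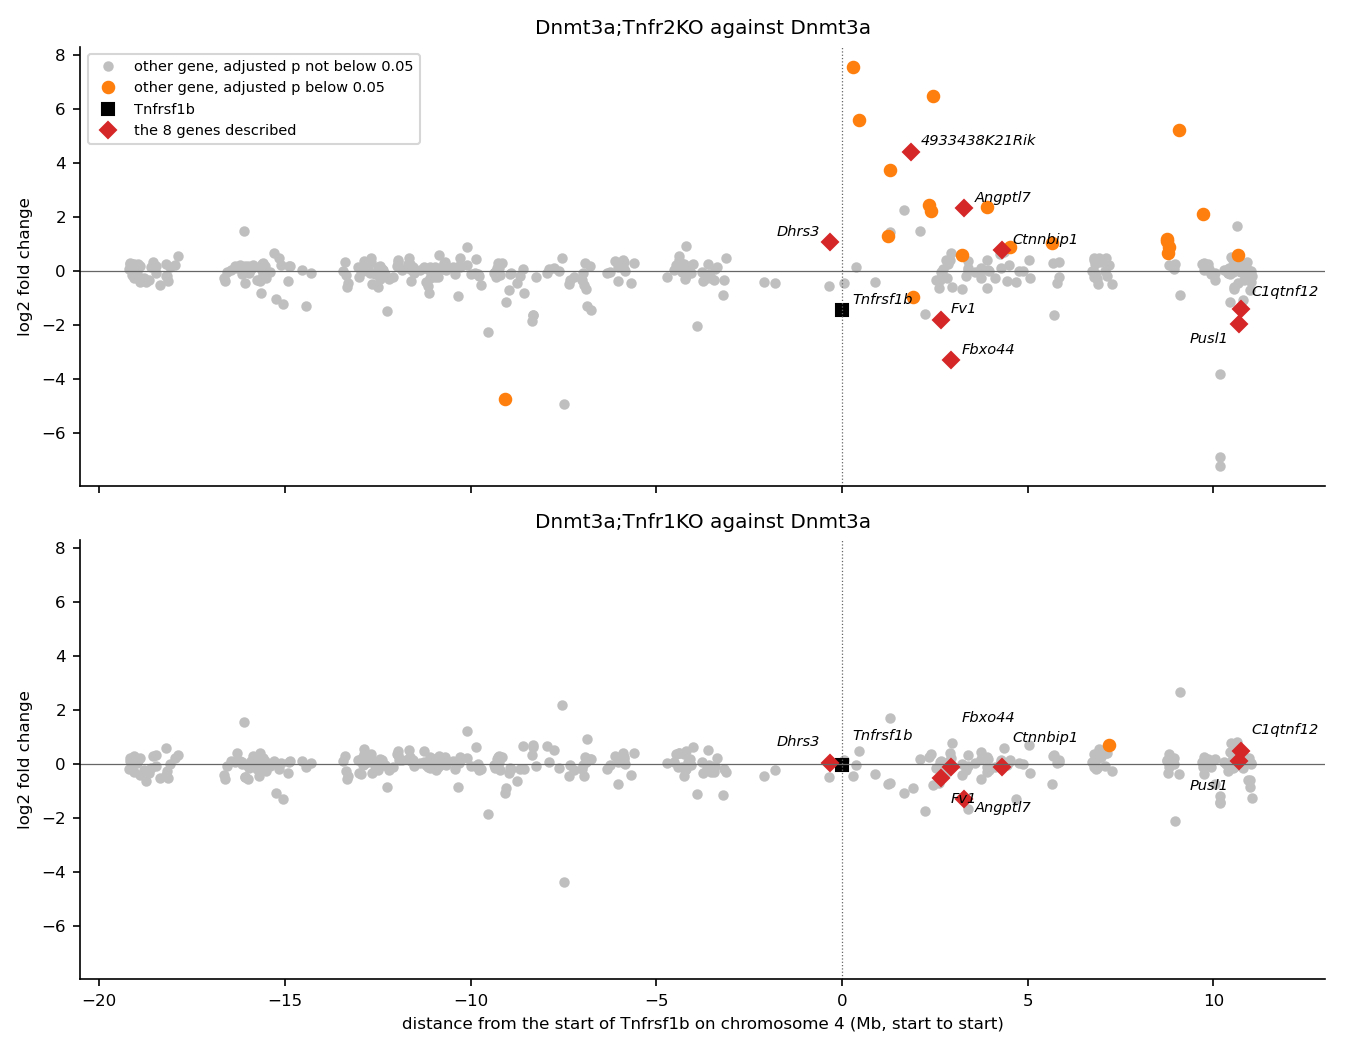
Log2 fold change of each tested gene of chromosome 4 against the distance of its start from that of Tnfrsf1b, from 20 Mb proximal (negative) to the end of the chromosome, for Tnfr2KO (top) and Tnfr1KO-labelled mice (bottom) against Dnmt3a. In the top panel 19 of the called genes (orange) and 7 of the 8 genes (diamonds) lie distal within 11 Mb, with Dhrs3 and Id3 on the proximal side; in the bottom panel 1 gene is called. Fitted folds of genes near 0 UMIs in a group depend on the prior count, and 4933438K21Rik is left out of the bottom panel for that reason.

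Within 100 annotated genes on either side of Tnfrsf1b, the matrices list 92 other genes. In Tnfr2KO against Dnmt3a mice, 8 of the 37 tested were called by edgeR, and 0 of the 23 without a zinc finger name. Of the 23, 7 had an unadjusted p below 0.05, as had 3603 of all 15645 genes. Dhrs3, 4933438K21Rik and Fv1 lie in this window too and are left out of these counts, since this contrast chose them. The 0 of 23 therefore does not show that only zinc finger genes differed there. The 8 called were Zfp990, Zfp534, Zfp980, Zfp981, Zfp985, Zfp979 and Zfp992, from 7.57 down to 1.28 on the log2 scale, and Zfp991 at -0.96. All 8 encode zinc finger proteins. The count of 8 moved under 12 of 24 alternative settings, to as few as 2 in a fit of the 2 groups alone. Further distal, the 11 called genes without a zinc finger name were all higher. Named after their values were seen, they include Arhgef16 (5.23), Cort (2.36), Tnfrsf14 (2.13), A430005L14Rik (1.21) and Dffb (1.11). In this comparison, all called genes of the stretch that were lower and without a zinc finger name are Tnfrsf1b or among the 8. Nothing is therefore read from the direction of the 11. Against MxCre mice 16 of the 136 distal genes were called, 13 higher and 3 lower; named after their values were seen, the 3 were Fbxo2 (-3.01), Atad3aos (-1.56) and Tnfrsf18 (-1.52).

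Most of the genes next to the 8 did not pass the test in the same comparison. On the GRCm38 map, the tested genes next to Fv1 were Miip (log2 fold change -0.32, edgeR adjusted p = 0.309) and Mfn2 (-0.03, adjusted p = 0.889). Next to Fbxo44 (-3.30) were its family members Fbxo6 (0.66, adjusted p = 0.0581) and Fbxo2 (-0.61, adjusted p = 0.521). C1qtnf12 (-1.39) lay between Ube2j2 (-0.02, adjusted p = 0.935) and B3galt6 (0.12, adjusted p = 0.654). Beside Pusl1 (-1.98) were Ints11, which rose, and Acap3 (-0.01, adjusted p = 0.963). Angptl7 (2.33) had Mtor (-0.68, adjusted p = 0.0742) and Exosc10 (-0.18, adjusted p = 0.380) beside it, and Ctnnbip1 (0.79) had Lzic (0.11, adjusted p = 0.558) and Clstn1 (0.70, adjusted p = 0.185). Of the genes adjacent to these 8, only Zfp991, Ints11 and Tnfrsf1b itself passed the test.

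Cells were next assigned to lineages by UMIs of marker genes, to see in which cells the 8 genes were read. Stem-like cells numbered 10692, granulocyte-like 17419, monocyte-like 14318, megakaryocyte-like 3237 and erythroid-like 7099 over the 14 mice. The assignment is a range rather than a sharp type: 6153 stem-like and 6100 granulocyte-like cells were within 1 marker of another lineage, and monocyte-like cells held a median of 90.25 UMIs of granulocyte markers. Dnmt3a replicate 4 had 17 megakaryocyte-like cells and was left out of that lineage. Levels by lineage did not choose the genes, and edgeR compared each lineage with the mean of the other 4, with the mouse as a block. Of 35 tests (7 genes in 5 lineages, 4933438K21Rik being too low), 32 were called. Angptl7 passed the filter on low counts only with the Tnfr2KO mice, which chose it, so its levels are described without a test, and of the 30 tests of the other 6 genes 28 were called. Of all genes, 74.1% were called in stem-like, 78.2% in granulocyte-like, 77% in monocyte-like, 66.8% in megakaryocyte-like and 78.4% in erythroid-like cells, so differences between lineages are the rule among all genes.

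C1qtnf12 was foremost an erythroid transcript. Its mean over the mice was 161 CPM in erythroid-like cells and 19.5 CPM in the others, a log2 difference of 2.84 ± 0.12 (edgeR adjusted p = 7.03e-29), higher in 14 of 14 mice. Outside the Tnfr2KO group, granulocyte-like cells held 12.6% of the erythroid level of C1qtnf12. They held 0.429% of the erythroid level of the globin gene Hba-a1 and 0.45% of that of Hbb-bt. Over the 4 other lineages C1qtnf12 was at 7.66% to 12.6% of its erythroid level, and the summed erythroid markers, with which the lineages were assigned, at 0.572% to 3.55% of theirs. The part of free RNA in these levels was not tested.

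Dhrs3 had the opposite order. Erythroid-like cells had 2.90 CPM and the others 27.4 CPM (log2 difference -3.28 ± 0.18, edgeR adjusted p = 1.88e-24, lower in 14 of 14 mice). It was higher in monocyte-like cells (1.47 ± 0.11, adjusted p = 5.62e-19) and megakaryocyte-like cells (1.52 ± 0.13, adjusted p = 2.13e-15). Fbxo44 was higher in stem-like cells (0.91 ± 0.15) and erythroid-like cells (0.83 ± 0.16), and lower in granulocyte-like cells (-1.15 ± 0.16) and monocyte-like cells (-1.31 ± 0.16), all with an adjusted p of at most 8.69e-06. Pusl1 was lower in stem-like cells (-0.59 ± 0.08, adjusted p = 1.13e-09) and higher in erythroid-like cells (0.58 ± 0.07, adjusted p = 3.73e-10). Ctnnbip1 was higher in stem-like (0.31) and megakaryocyte-like cells (0.46) and lower in granulocyte-like (-0.54) and erythroid-like cells (-0.48), each with an adjusted p of at most 0.00191. In the 10 mice outside Tnfr2KO, an alternative chosen after seeing the data, the differences were 0.71 in megakaryocyte-like and -0.93 in granulocyte-like cells. In Tnfr2KO mice granulocyte-like cells, at 21.2 CPM, were not the lowest lineage, the other means lying between 13.9 and 26.3 CPM. Fv1 was lower in granulocyte-like (-0.47) and higher in megakaryocyte-like cells (0.69), and in stem-like and erythroid-like cells it did not pass the test (adjusted p = 0.250 and 0.0522).

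Within lineages, the difference between Tnfr2KO and the other mice varied by gene. Pusl1 was below all other mice in 5 of 5 lineages, Dhrs3 above and Fbxo44 below in 4 of 5. In the granulocyte-like and monocyte-like sums, 7 of the 8 genes did not overlap, against 0.491% and 0.546% of all tested genes. The counts were 4 of 8 in stem-like cells (0.335% of all genes), 4 of 8 in erythroid-like cells (0.226%) and 1 of 8 in megakaryocyte-like cells (0.304%), where the sums held the fewest cells. These are again descriptions, and differences between lineages in the size of the change were not tested.

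Of the enzymes and the F-box gene, Pusl1 was at 4.51 ± 1.91, 5.57 ± 1.22, 5.81 ± 1.56, 5.85 ± 3.08 and 7.67 ± 2.55 CPM in the stem-like, granulocyte-like, monocyte-like, megakaryocyte-like and erythroid-like cells of Tnfr2KO mice. In Dnmt3a mice the same cells had 16.6 ± 3.25, 26.3 ± 6.00, 24.9 ± 3.59, 15.1 ± 4.17 and 28.2 ± 11.1 CPM. Fbxo44 likewise went from 2.07 ± 0.32 to 0.271 ± 0.140 CPM in stem-like cells and from 2.11 ± 0.64 to 0.231 ± 0.095 CPM in erythroid-like cells. The mean of Dhrs3 was higher in all 5, as in granulocyte-like cells with 29.0, 29.2, 18.2 and 45.3 CPM in Tnfr2KO against 3.66, 5.93, 6.90 and 9.97 CPM in Dnmt3a mice.

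Angptl7 was above all other mice in granulocyte-like, monocyte-like and stem-like cells. It was at 3.62, 3.44, 3.52 and 2.48 CPM in granulocyte-like cells of Tnfr2KO mice and at 0.488, 0.288, 0.150 and 0.172 CPM in those of Dnmt3a mice, with means of 0.131 CPM in MxCre and 0.116 CPM in Tnfr1KO-labelled mice. In monocyte-like cells it was at 2.39 ± 0.41 against 0.258 ± 0.254 CPM, and in stem-like cells at 1.43 ± 0.71 against 0.231 ± 0.335 CPM. In erythroid-like cells it was at 0.270 ± 0.187 against 0.488 ± 0.411 CPM and in megakaryocyte-like cells at 0.254 ± 0.198 against 0.453 ± 0.492 CPM, and the groups overlapped in both. Those megakaryocyte-like values rest on 5 UMIs in each group. Ctnnbip1 was above all other mice in granulocyte-like cells, at 21.2 ± 2.17 against 8.20 ± 1.80 CPM in Dnmt3a mice, and in monocyte-like cells, at 26.3 ± 1.75 against 13.5 ± 1.92 CPM. In stem-like cells (20.0 ± 1.85 against 14.3 ± 3.03 CPM) and erythroid-like cells (13.9 ± 1.54 against 8.64 ± 2.27 CPM) it was above the Dnmt3a mice but not above all others. In megakaryocyte-like cells, at 20.0 ± 1.63 against 17.4 ± 3.7 CPM, it overlapped the Dnmt3a mice too. The MxCre means of Ctnnbip1 were 20.3 CPM in stem-like, 13.1 CPM in erythroid-like and 21.9 CPM in megakaryocyte-like cells. They were 7.49 CPM in granulocyte-like and 13.8 CPM in monocyte-like cells.

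C1qtnf12 was at 16.6, 10.8, 30.6 and 36.2 CPM in erythroid-like cells of Tnfr2KO mice. Those of Dnmt3a mice had 172, 161, 294 and 285 CPM, those of MxCre mice 189, 164 and 220 CPM and those of Tnfr1KO-labelled mice 146, 254 and 277 CPM. No Tnfr2KO mouse came near the others there, and the Tnfr2KO mean was 23.6 ± 11.8 against 228 ± 71.1 CPM. In granulocyte-like cells the means were 12.5 ± 4.48 and 22.1 ± 4.25 CPM and in stem-like cells 10.4 ± 4.74 and 19.4 ± 3.003 CPM, with overlap in both. In monocyte-like cells, at 7.51 ± 2.97 against 14.5 ± 2.35 CPM, the Tnfr2KO mice were below all 10 others, and in megakaryocyte-like cells, at 13.1 ± 6.76 against 21.6 ± 4.72 CPM, they overlapped. Tnfrsf1b itself was lower in granulocyte-like cells (5.81 ± 1.43 against 18.7 ± 0.31 CPM) and monocyte-like cells (5.10 ± 1.16 against 17.6 ± 3.63 CPM), but at 3.93 ± 0.83 against 2.36 ± 0.66 CPM in erythroid-like cells.

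**Figure D4:**
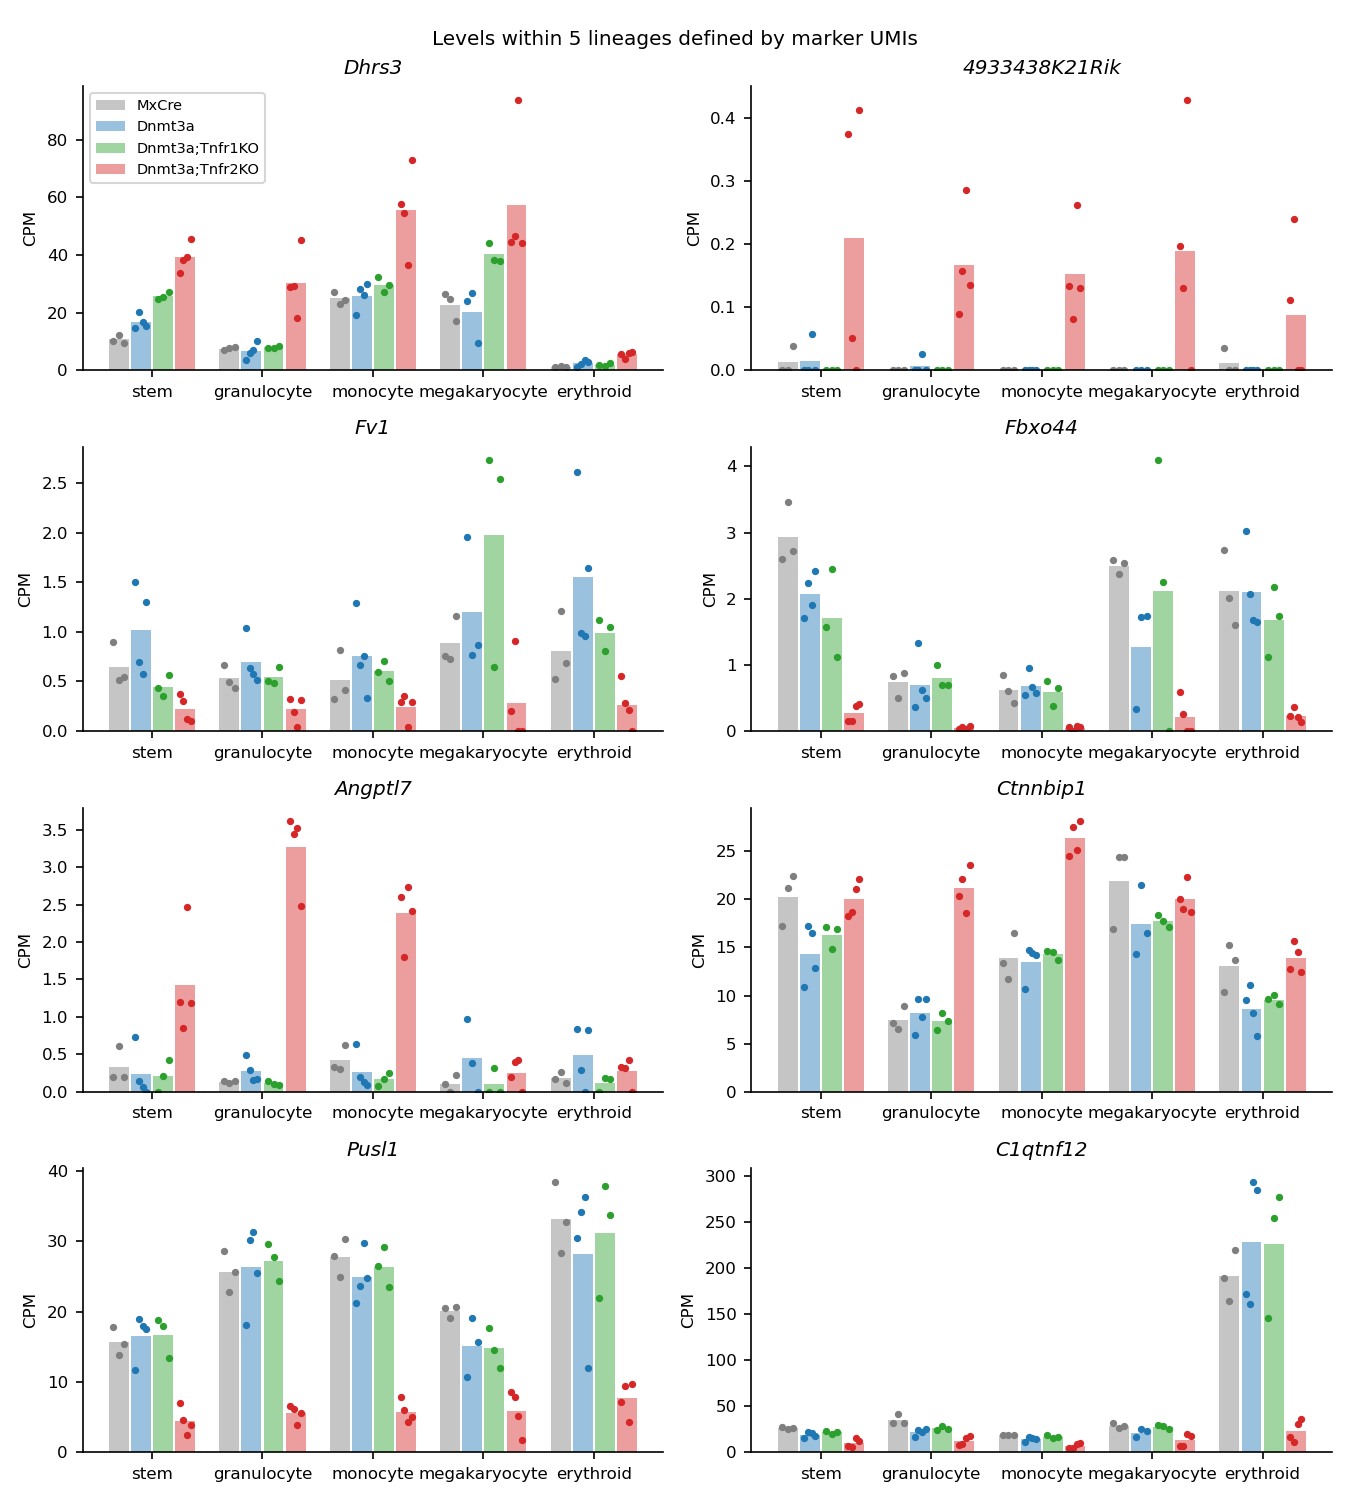
Level of each of the 8 genes in 5 lineages, in CPM of the cells of a lineage on linear axes (bars are group means, points are mice; n = 3, 4, 3 and 4, with 3 Dnmt3a mice in the megakaryocyte lineage). C1qtnf12 is at 146 CPM or more in erythroid-like cells of every mouse outside Tnfr2KO and at 36.2 CPM or less in Tnfr2KO; Angptl7 in Tnfr2KO is above all other mice in 3 lineages and overlaps them in the other 2.

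The pathways and families of the 8 genes were examined next. Of 105 genes of retinoid metabolism, beta-catenin signalling, SCF ligases, pseudouridine synthases, retrovirus restriction, and the C1q and angiopoietin-like families, 88 were tested in Tnfr2KO against Dnmt3a mice. Of these, 23 had an unadjusted p below 0.05, as had 3603 of all 15645 genes. EdgeR called 2 of the 88 (2.27%, against 0.876% of all genes), both lower: Lef1, a partner of beta-catenin, at -7.71 ± 1.53 (adjusted p = 0.0422), and Fbxw7, an F-box protein, at -0.47 ± 0.09 (adjusted p = 0.0433). Lef1 is also a gene of early B cells, whose markers reached 2567 CPM in Dnmt3a replicate 4; their part in the result was not tested. Neither gene was called without that library, nor without any one of 9 other libraries. The median log2 fold change of the 88 was -0.09, against -0.03 over all genes. By family, 0 of 18 retinoid genes, 1 of 26 beta-catenin genes, 1 of 10 SCF genes, 0 of 12 pseudouridine synthases, 0 of 13 restriction genes and 0 of 9 secreted relatives were called. Against Tnfr1KO-labelled mice edgeR and DESeq2 called 0 of the 88, with 6 at an unadjusted p below 0.05, as were 610 of all 15645 genes. Against MxCre mice edgeR called 3 of 88 (3.41%, against 0.46% of all genes). Named after their values were seen, these were the retinoic acid receptor gene Rarb (-3.29), Fbxo2 (-3.01) and Angptl2 (1.81). Between Dnmt3a and MxCre mice it also called 3 of 88 (3.41%, against 2.46% of all genes), Lef1 (6.99), Fbxo2 (-2.40) and Angptl2 (2.38). Without MxCre replicate 2 or Dnmt3a replicate 1 edgeR called 1 of all genes in that comparison, so at least 2 of these 3 calls are lost there.

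The genes most like the 8 over the 14 mice were mostly of chromosome 4. By Pearson r of log2 CPM, Fbxo44 was closest to Pusl1 (0.944) and Tnfrsf1b (0.917), and 4933438K21Rik to Zfp990 (0.962) and Zfp534 (0.955). Angptl7 had an r of 0.935 with Errfi1. Ctnnbip1 was closest to Cort (0.904) and 4933438K21Rik (0.897), and C1qtnf12 to Fbxo44 (0.915) and Cda (0.899). Dhrs3 was closest to D630023F18Rik of chromosome 1 (0.883) and to Dffb (0.854), Fv1 to Gm50210 (0.915) and Dffa (0.884), and Pusl1 to Fbxo44 and CAAA01118383.1 (0.935). These values describe the same split of 4 mice from 10 that listed the genes, in libraries that differ in depth.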

How the data were processed

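Droplet-based 3′ single-cell RNA sequencing was done on 14 libraries. The deposited matrices hold UMI counts per gene and barcode without normalization, and were made with Cell Ranger 6.0.0 after bcl2fastq 2.20.0.422, on mm10/GRCm38, per the submitters' processing notes; the annotation release is not given in the sources used here. Positions come from RefSeq on GRCm38.p6, by symbol.

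The filter on cells required 1000 UMIs, 500 genes and under 10% mitochondrial UMIs. Doublets, at 0.8% per 1000 cells, were removed as the cells with most simulated doublets nearby (scikit-learn 1.9.0). A cell took the lineage with the largest share of its markers detected, with at least 2 markers and 3 marker UMIs and no tie; sums of under 20 cells were left out.

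UMIs were summed per mouse and tested, two-sided, with edgeR 4.0.16 (quasi-likelihood, TMM, filterByExpr, all 4 groups in one model, R 4.3.3); 15645 genes passed the filter, the 8 genes included. Adjustment was by Benjamini-Hochberg over all tested genes, and an adjusted p below 0.05 is a call. The fits were tested on simulated data. DESeq2 1.42.0 was an alternative. The members, lists, named genes and tests were chosen with earlier results of these data known. The text names the 8 genes and Tnfrsf1b; of neighbours, up to 8 called genes of highest absolute fold change; of functional relatives, all called, at most 6; and the 2 genes of highest r for each member, of which 1 is not reported here.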

Additional observations from a re-analysis of the deposited data

Results flagged for a closer look

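In 16 tests of a gene in a group of 4 mice, 3 had a mouse set apart from the other 3 by most of the group's range (Dixon's criterion), where chance gives about 1 in 20. One of them follows from the counts themselves: the 3 UMIs of 4933438K21Rik in Dnmt3a mice were all in replicate 3, at 0.0214 CPM, and with the others at 0 neither the criterion nor its chance rate applies. Fv1 was at 1.46 CPM in Dnmt3a replicate 1, the library of which 26.5% of barcodes were kept, and the part of that loss in the value was not tested. Ctnnbip1 was at 23.3 CPM in Tnfr2KO replicate 4, against 20.5 to 20.9 CPM in the other 3 mice, all above every mouse of the other groups.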

How the results depend on the processing

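Folds of the 8 genes in Tnfr2KO comparisons kept their direction under all 22 alternatives. Genes called in Tnfr2KO against Dnmt3a were 2 with only the 2 groups and 2 to 8 when a library was left out; against Tnfr1KO-labelled, 2 to 7 (2 or 3 without any Tnfr1KO-labelled library or without Tnfr2KO replicate 1 or 2). In Tnfr1KO-labelled against MxCre, 1 was called with only the 2 groups. Neighbours called in Tnfr2KO against Dnmt3a numbered 13 by DESeq2, 2 with only the 2 groups, 4 within 50 genes, 19 from Dhrs3 to C1qtnf12 (a window chosen after seeing the data) and 3 to 10 without a library (3 to 5 without an MxCre library, Dnmt3a replicate 4, Tnfr1KO-labelled replicate 3 or Tnfr2KO replicate 1, 2 or 3). Against Tnfr1KO-labelled they were 8 by DESeq2, 12 in that window and 3 to 7 (7 without Dnmt3a replicate 4); for Tnfr1KO-labelled against Dnmt3a, 4, 1 and 0 to 2 (2 without Tnfr2KO replicate 4). Relatives called were 6 by DESeq2, 1 without a filter, 0 with only the 2 groups, 1 with the replicate block and 0 to 6 without a library (5 and 6 without Dnmt3a replicates 2 and 3, 1 without Tnfr1KO-labelled replicate 2 or Tnfr2KO replicate 4, and 0 without any other).

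Small folds changed sign, none of them called, and the cause was not tested. Pusl1 in Dnmt3a against MxCre (-0.01) was 0.066 with the replicate block, 0.000776 with doublets kept, 0.0081 with all barcodes and -0.12 to 0.12 without a library. Ctnnbip1 there (-0.17) ranged from -0.28 to 0.0034 without a library. Dhrs3 in Tnfr1KO-labelled against Dnmt3a (0.05) ranged from -0.074 to 0.30 and Fbxo44 (-0.12) from -0.28 to 0.059. Fv1 in Tnfr1KO-labelled against MxCre (-0.03) ranged from -0.071 to 0.0020. The megakaryocyte log2 ratio of Angptl7 (-0.21) ranged from -0.43 to 0.071, the latter without Dnmt3a replicate 1. Lineage tests in the 10 mice outside Tnfr2KO, an alternative chosen after seeing the data, gave 28 calls in 30 tests, Angptl7 being below the filter there.

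Over all genes, calls in Tnfr2KO against Dnmt3a were 137, 1062 by DESeq2 and 17 with only the 2 groups; against Tnfr1KO-labelled 30 and 103 by DESeq2; and against MxCre 72, 409 and 191. Dnmt3a against MxCre gave 385, 1482 and 12, and 139 with the replicate block; Tnfr1KO-labelled against Dnmt3a 86, 917 by DESeq2, 57 with all barcodes and 36 with the block; and against MxCre 64, 501, 115 and 31. Leaving out 1 library also moved these counts. In Tnfr2KO against Dnmt3a they ran from 33 (without Tnfr2KO replicate 1) to 798 (Dnmt3a replicate 2; 663 without Dnmt3a replicate 3), against Tnfr1KO-labelled from 18 (Tnfr2KO replicate 1 or 2) to 77 (Dnmt3a replicate 4) and against MxCre from 23 (MxCre replicate 3) to 153 (Dnmt3a replicate 4). Dnmt3a against MxCre ran from 1 (MxCre replicate 2 or Dnmt3a replicate 1) to 1223 (Dnmt3a replicate 2), Tnfr1KO-labelled against Dnmt3a from 8 (Tnfr1KO-labelled replicate 3) to 317 (Dnmt3a replicate 2) and against MxCre from 6 (Tnfr1KO-labelled replicate 3) to 239 (Dnmt3a replicate 4). Replicate numbers showed no visible pairing of the mice. Same-numbered deviations correlated at -0.352 to 0.238 (median -0.04, 5 of 19 pairs over 0.1). The others correlated at -0.302 to 0.334 (15 of 54 pairs over 0.1). With so few mice per group this cannot exclude a shared batch or donor, and the block is only a setting. The fitted log2 fold of 4933438K21Rik in Tnfr2KO against Dnmt3a was 4.42. Without Dnmt3a replicate 3 the Dnmt3a mice have 0 UMIs, so the fitted 7.12 depends on the prior count and is no measured fold. Depth limits 4933438K21Rik, Fbxo44, Fv1 and Angptl7, which give few UMIs per lineage.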
